A study of Arabidopsis thaliana with 3 samples.

Results

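The mitochondrial genome of Arabidopsis was described through every deposited row whose locus identifier starts with ATMG, which gave 122 rows of the 27416 in the files. Plant mitochondria make a small share of their own proteins: membrane-embedded and core subunits of the respiratory chain and of ATP synthase, proteins that attach haem to cytochrome c, and part of the mitochondrial ribosome. Most other subunits of the same complexes are encoded in the nucleus, made in the cytosol and imported. Plant mitochondrial transcripts are also changed after transcription: cytidines are edited to uridines, several genes are pieced together from separately transcribed parts by trans-splicing, and a large insertion of mitochondrial DNA lies near the centromere of chromosome 2 in Col-0.

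RNA came from whole plants of wild-type Col-0, the common laboratory accession, at 3 weeks of age, grown on MS plates at 23 ± 2 °C with daily periods of 16 h light and 8 h dark. The labels give 1 group of 3 libraries, numbered replicates 4, 5 and 6, with no mutant and no treatment, so levels are described here and no test between conditions exists. Nothing in the labels says whether the libraries came from separate plants or cultures, and the spread between them may be technical. Per the labels' protocols, ribosomal RNA was removed from total RNA and directional libraries were made. The files name no unit. Values are called FPKM here, fragments scaled to the length of the gene model and to the total of the library, but RPKM, which counts reads in place of fragments, is equally possible. Depth recovered from the values was 19921241, 19905762 and 19892527 reads in replicates 4, 5 and 6.

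Names came from a list that pairs mitochondrial rows with RefSeq genes, and each pairing was then checked against the reference. A row was tied by note where a RefSeq note on a chromosome 2 gene named it as best match. It was tied by length where the RefSeq coding length equalled the smallest length implied by the values, or was a whole multiple of it. Both are called an exact length below. An exact length does not single out a row. For NAD4L it was 303 bases, a length also implied for ATMG00740, ATMG00770 and ATMG01240. Of the 37 rows named here, 33 had a note or an exact length. NAD1C was tied by a multiple, 318 against 159 bases. ATP9, COX3 and ATP6-1 were tied by the note alone, and their implied lengths are longer than the coding sequence. NAD2A, MATR and MTTB had no note and a length longer than the coding sequence by an open frame. NAD1B had no note and a length within 2 bases. A further row, ATMG01170, stood in the ATP synthase list without a tie and is given by its identifier. These 38 rows are called rows of known function, and the other 84 are given by identifier alone.

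Mitochondrial rows were low as a group. In all 3 libraries 34 of the 122 rows, or 27.9%, stood at 1 FPKM or more, here called detected, against 57 of 88 chloroplast rows (64.8%) and 17148 of 27206 nuclear rows (63.0%). Over all rows in the files that share was 62.9%. At the other end, 32 mitochondrial rows (26.2%) were listed at 0 in every library, against 14.8% of chloroplast rows, 18.2% of nuclear rows and 18.3% of all rows. The remaining 56 mitochondrial rows lay above 0 in at least 1 library and under 1 FPKM in at least 1.

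The median mitochondrial row had 0.420, 0.430 and 0.551 FPKM in replicates 4, 5 and 6. Chloroplast rows had medians of 2.45, 2.12 and 2.17 FPKM, and nuclear rows 4.71, 4.72 and 4.70 FPKM. On the log2(FPKM + 1) scale, which compresses differences among low values, the mitochondrial median minus the nuclear median was -1.96 ± 0.072 (SD, n = 3 libraries). The same difference from the chloroplast median was -1.15 ± 0.13 (SD, n = 3), and it turned to 0.11 when only rows with a mean of 1 FPKM or more were kept. In whole plants, fewer cells of a type and less RNA per cell cannot be told apart. Mitochondrial rows summed to 346, 358 and 340 FPKM, which was 0.0472%, 0.0488% and 0.0464% of the FPKM of all rows. In reads this was 3697, 3768 and 3686 per library. Chloroplast rows summed to 472, 524 and 512 FPKM, so the rows of both organelles held a small part of the summed FPKM. These are shares of the deposited values. The share of organelle transcripts in the RNA cannot be read from them, because the handling of reads before that step is not known in full.

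**Figure D1:**
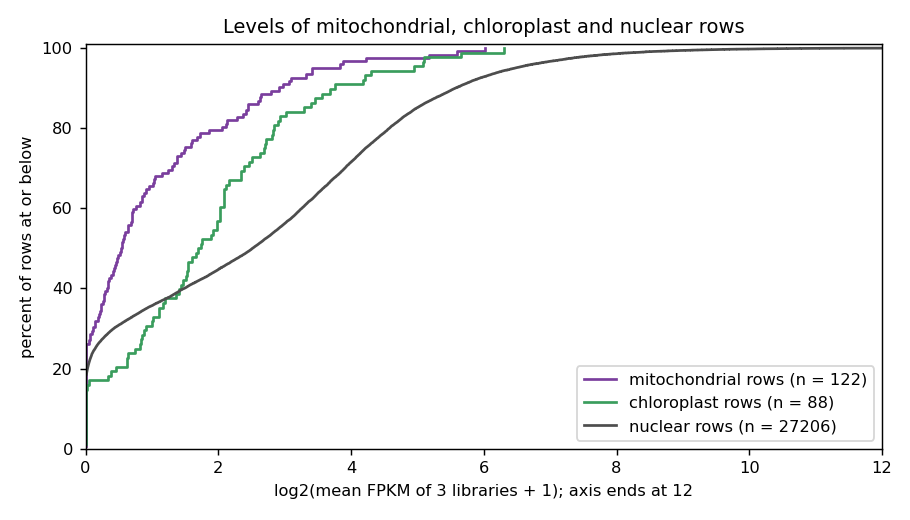
Cumulative share of rows (percent, vertical axis) against log2 of the mean FPKM of 3 libraries plus 1 (horizontal axis) for 122 mitochondrial, 88 chloroplast and 27206 nuclear rows. The mitochondrial curve starts at 26.2% listed at 0 and lies above both other curves over most of the range, which means lower levels.

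A few rows held most of the mitochondrial signal. The highest row, ATP9, held 18.3 ± 0.54% of the summed mitochondrial FPKM (SD, n = 3), the 3 highest held 42.1 ± 1.04%, and the 10 highest held 65.3 ± 2.08%. The rows that averaged 10 FPKM or more numbered 6: ATP9, ATMG00030, ATMG01370, ATMG01330, NAD5B and ATMG00690. Levels of the rows correlated between libraries on the log2(FPKM + 1) scale. Pearson r was 0.971, 0.979 and 0.981 for replicates 4 and 5, 4 and 6, and 5 and 6. It was taken across all 122 rows, among them the 32 listed at 0 in every library. These correlations are across genes of the same libraries and are a description.

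**Figure D2:**
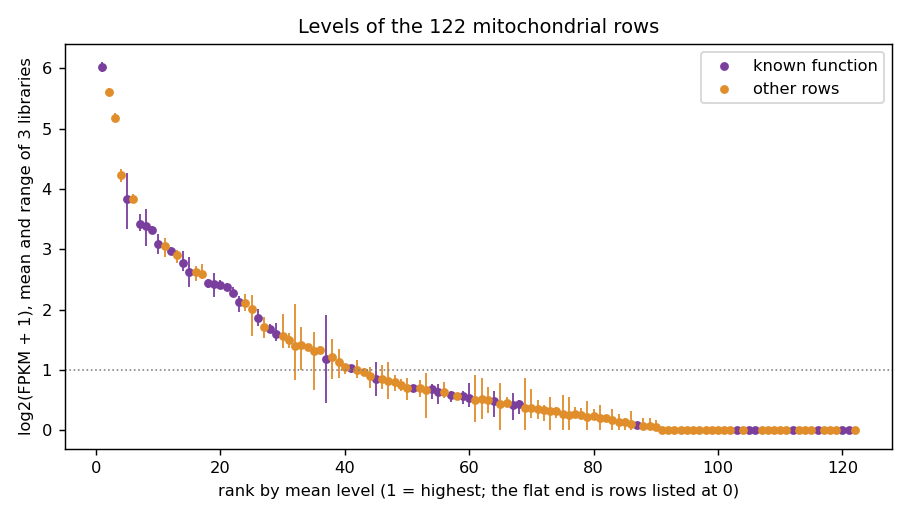
Level of each mitochondrial row on the log2(FPKM + 1) scale (vertical axis; point, mean; bar, range of 3 libraries) against its rank (horizontal axis), by known function or not. The dotted line marks 1 FPKM, and 32 rows at the right are listed at 0.

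Among rows of known function, 18 of 38 stood at 1 FPKM or more in every library (47.4%), against 16 of the other 84 (19.0%). Their median was 1.49, 0.830 and 1.18 FPKM in replicates 4, 5 and 6, against 0.234, 0.161 and 0.312 FPKM for the other rows. The difference of medians was 0.80 ± 0.18 on the log2(FPKM + 1) scale (SD, n = 3 libraries). In all 3 libraries the rows of known function had the higher median.

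ATP synthase, the rotary enzyme that makes ATP from the proton gradient, held the highest row of known function and the lowest of those above 0. ATP9, the ring subunit c that turns within the membrane, had 63.5, 67.5 and 60.4 FPKM in replicates 4, 5 and 6, a mean of 63.8 ± 3.53 (SD, n = 3). ATP4, a subunit of the peripheral stalk, had 5.29, 4.16 and 6.34 FPKM. ATMG01170 had 3.55, 3.66 and 2.90 FPKM. ATP9 was thus far above the other members in each library, and its lowest value exceeded the highest of ATP4.

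The other ATP synthase rows did not reach 1 FPKM in any library. ATP6-1, subunit a of the proton channel, had 0.380, 0.723 and 0.304 FPKM. ATP8 had 0.421, 0.421 and 0.211 FPKM. ATP1, the alpha subunit of the catalytic head, had 0.0659, 0.0330 and 0.0990 FPKM, from 2, 1 and 3 reads. ATP1 minus ATP9 was -5.93 ± 0.12 on the log2(FPKM + 1) scale (SD, n = 3). It was -8.61 with a pseudocount of 0.1 in place of 1, so the size of this difference depends on the few reads of ATP1.

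The first 50 coding bases of ATP9 are shown with those of 4 other genes, because the level of a row and the presence of an identical copy outside the mitochondrion can be read side by side from them. The capitals mark the start codon, and letters are the genomic ones, before RNA editing, from the RefSeq TAIR10.1 sequences. ATP9 lies on the mitochondrial sequence at MT:271136-271185 on the minus strand, with another copy of these 50 bases in the same genome and an identical stretch at chr2:3252031-3252080 on the minus strand. COB lies at MT:182809-182858 on the minus strand, with an identical stretch at chr2:3450863-3450912 on the plus strand. NAD4 lies at MT:215513-215562 on the minus strand, with an identical stretch at chr2:3418229-3418278 on the plus strand. COX1, at MT:116296-116345 on the minus strand, and NAD4L, at MT:361637-361686 on the plus strand, have 0 copies on chromosome 2.
ATP9: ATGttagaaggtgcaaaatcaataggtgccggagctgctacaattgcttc
COB: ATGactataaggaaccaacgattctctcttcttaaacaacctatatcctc
NAD4: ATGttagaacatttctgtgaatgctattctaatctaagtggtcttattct
COX1: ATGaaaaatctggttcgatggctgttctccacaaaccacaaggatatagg
NAD4L: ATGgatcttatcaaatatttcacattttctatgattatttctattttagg

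Complex I, the NADH dehydrogenase that feeds electrons into the chain, had 14 rows, among them the segments of NAD1, NAD2 and NAD5, which are joined by trans-splicing. All 3 libraries held 7 of the 14 at 1 FPKM or more, and 2 were listed at 0. NAD4L, a small membrane subunit, had 9.94, 11.8 and 7.30 FPKM in replicates 4, 5 and 6. NAD9, of the peripheral arm that faces the matrix, had 6.83, 5.26 and 5.61 FPKM. NAD4, a proton-pumping membrane subunit, had 4.52, 4.66 and 4.16 FPKM. NAD7, of the peripheral arm, had 2.33, 2.59 and 3.01 FPKM, lower than NAD4 in every library. NAD6, another membrane subunit, had 0.569, 0.488 and 0.163 FPKM, and NAD3 was listed at 0.

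Segments of a trans-spliced gene stood at different levels in NAD1 and NAD5 and overlapped in NAD2. For NAD1, the segment NAD1C had 9.16, 8.85 and 11.1 FPKM, and NAD1B had 2.76, 0.368 and 1.29 FPKM from 15, 2 and 7 reads. NAD1A was listed at 0 in all 3 libraries, so no ratio to it is given. For NAD5, the segment NAD5C had 4.17, 3.71 and 3.71 FPKM against 1.11, 0.938 and 1.08 FPKM for NAD5A. NAD5C minus NAD5A was 1.25 ± 0.061 on the log2(FPKM + 1) scale (SD, n = 3), and the segments did not overlap in level. Of the 50-base words of the coding sequence, described further on, 0% of those of NAD5C and 96.3% of those of NAD5A occur in a nuclear chromosome, and for NAD1 the shares are 82.3% for NAD1C, 19.2% for NAD1B and 100% for NAD1A. The part of this sharing in the segment differences was not tested. NAD2B had 1.20, 0.490 and 0.818 FPKM and NAD2A 0.434, 0.695 and 0.696 FPKM. These overlapped, with a difference of 0.18 ± 0.41, and it turned to -0.043 without replicate 4.

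The middle segment of NAD5 is an exon of 22 bases, shorter than the fragments usually sequenced, and it is printed whole because its value per length rests on so little sequence. It lies at MT:360107-360128 on the plus strand and has 0 copies on chromosome 2.
NAD5B: gatatgatgattggtttaggta
NAD5B had 13.7, 18.3 and 9.14 FPKM, the highest mean of the complex I rows, from 6, 8 and 4 reads. Dividing by 22 bases turns each read into over 2 FPKM, and the spread of NAD5B, with an SD of 0.46 on the log2(FPKM + 1) scale, was the largest among detected mitochondrial rows. NAD5B minus NAD5A was 2.80 ± 0.51, and 3.54 with a pseudocount of 0.1.

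Complex IV, cytochrome c oxidase, passes electrons to oxygen, and its catalytic core is formed by the 3 mitochondria-encoded subunits. All 3 stood above 1 FPKM in every library. COX2, which takes electrons from cytochrome c, had 6.54, 7.25 and 6.74 FPKM in replicates 4, 5 and 6. COX1, which holds the oxygen-reducing site, had 4.60, 4.15 and 4.25 FPKM, and RefSeq marks 0 edited positions in it. COX3 had 2.39, 2.15 and 2.05 FPKM. The order COX2, COX1, COX3 held in each library without overlap. Complex III is represented in this genome by 1 gene, COB, which encodes cytochrome b, and it was listed at 0 in all 3 libraries.

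Proteins of cytochrome c maturation carry haem across the inner membrane and attach it. CCMFC, part of the haem lyase, had 8.61, 8.87 and 9.43 FPKM. CCMB, a membrane subunit of a transporter of this pathway, had 7.60, 8.49 and 6.56 FPKM. The pieces CCMFN2 and CCMFN1 of another lyase subunit, which the Arabidopsis genome encodes as separate genes, had 0.574, 0.657 and 0.657 FPKM and 0.350, 0.568 and 0.525 FPKM. CCMFN2 minus CCMFN1 was 0.14 ± 0.074 on the log2(FPKM + 1) scale. CCMC was listed at 0, so 2 of the 5 rows stood at 1 FPKM or more throughout and 1 was at 0 throughout.

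Ribosomal protein rows were split. RPL16 had 4.55, 3.63 and 5.12 FPKM and RPS3 4.42, 4.15 and 4.03 FPKM in replicates 4, 5 and 6. Their coding sequences overlap by 134 bases, so reads of this stretch could be assigned to either, and their difference, RPS3 minus RPL16, was -0.06 ± 0.22 and turned to 0.059 without replicate 6. RPL2 had 0.574, 0.383 and 0.575 FPKM and RPS12 0.133, 0.399 and 0.532 FPKM. The rows of RPL5, RPS4 and RPS7 were listed at 0. RPS12 begins 45 bases from the end of NAD3, which was also listed at 0. MATR, a maturase-related protein encoded within an intron of NAD1, had 1.79, 1.92 and 2.44 FPKM. MTTB, related to a protein translocase of the twin-arginine type, had 0.641, 0.350 and 0.701 FPKM.

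**Figure D3:**
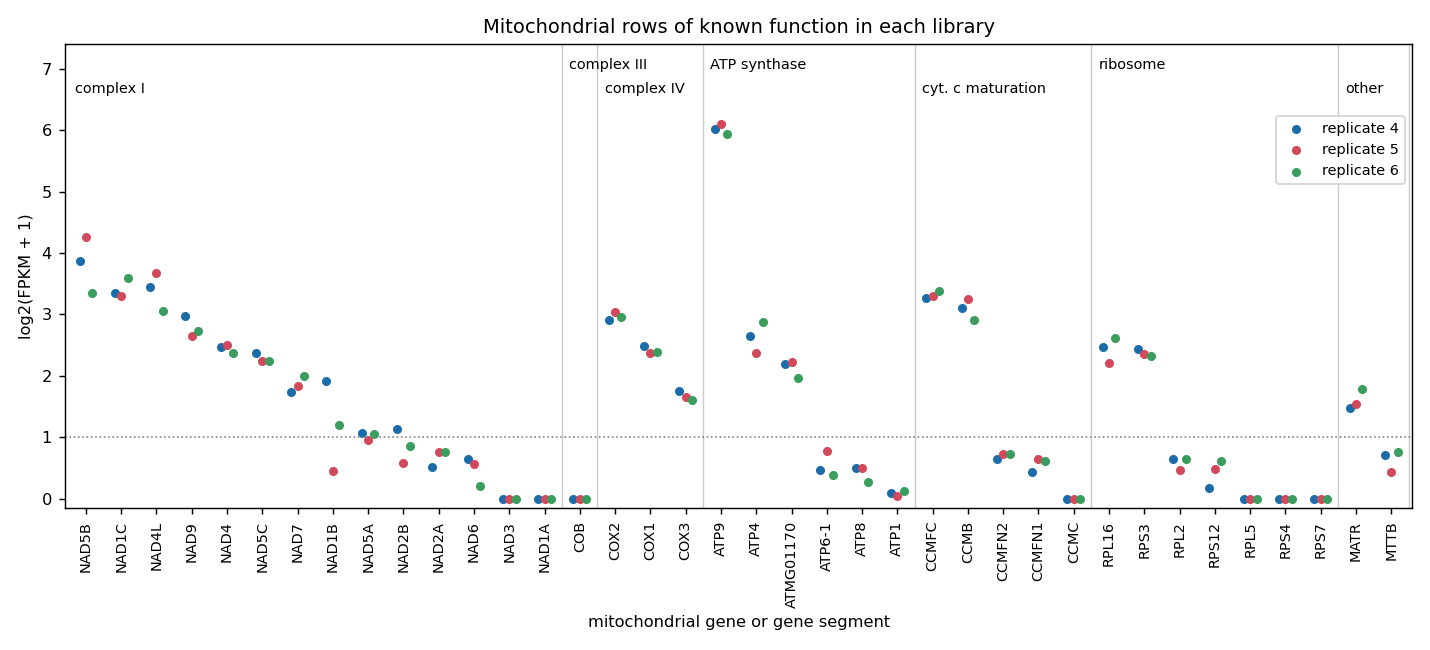
Level of the 38 rows of known function on the log2(FPKM + 1) scale (vertical axis), with 1 point per library and genes grouped by complex or pathway (horizontal axis). ATP9 is the highest, the 3 COX rows lie above the dotted line at 1 FPKM, and 7 rows are listed at 0 in all 3 libraries.

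Class medians compared with the median of all other rows of known function gave 0.88 ± 0.25 for complex I, 1.51 ± 0.10 for complex IV, 0.24 ± 0.35 for ATP synthase, -0.51 ± 0.30 for cytochrome c maturation and -1.21 ± 0.30 for ribosomal proteins on the log2(FPKM + 1) scale (SD, n = 3 libraries). Of these, the negative sign for ribosomal proteins held under every alternative that gave a value. The ribosomal difference shrank to -0.12 over rows with a mean of 1 FPKM or more. Leaving out tied rows that share words gave it no value, because no ribosomal protein row was left. Complex I, complex IV and cytochrome c maturation changed sign when rows with a mean under 1 FPKM were left out. Complex IV, ATP synthase and cytochrome c maturation changed sign when tied rows that share words with the nucleus were left out, which left COX1 alone, ATP4 with ATMG01170, and CCMB alone. ATP synthase also changed sign without the rows tied by neither note nor exact length.

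Nuclear genes for subunits of the same complexes were far higher as a group. They are a fixed list of 26, with 9 for complex I and 2 for complex IV, and do not cover every nuclear subunit. The 24 mitochondrial rows of complexes I, III, IV and ATP synthase had medians of 2.58, 2.37 and 2.48 FPKM, against 70.5, 67.5 and 66.2 FPKM for 26 nuclear rows. At 1 FPKM or more in every library stood 13 of the 24 mitochondrial rows and 26 of the 26 nuclear ones. The difference of medians was -4.31 ± 0.031 on the log2(FPKM + 1) scale (SD, n = 3), and -3.52 without the tied rows that share words. Among nuclear rows, AT5G08530, the 51 kDa subunit of complex I, averaged 134.8 ± 0.966 FPKM, and AT5G13430, a Rieske protein of complex III, averaged 49.4 ± 0.160 FPKM. ATP9, with a mean of 63.8 FPKM, was the only one of the 24 mitochondrial rows near the median of the nuclear means, 68.8 FPKM. The lowest nuclear row of the list, AT5G25450 of complex III, averaged 2.63 ± 0.574 FPKM, close to the mitochondrial median.

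Identity with nuclear DNA moved with these levels. Each coding sequence was cut into overlapping words of 50 bases, and the share of words found unchanged in a nuclear chromosome was taken for the 36 tied rows long enough to hold one. The 6 rows with no shared word, NAD4L, NAD5C, NAD9, COX1, ATP4 and CCMB, all stood at 1 FPKM or more in every library, with means of 3.86 to 9.67 FPKM. Of the 10 rows with under 50% shared words, 9 stood at 1 FPKM or more and 0 were listed at 0, and the median of their means was 4.85 FPKM. Of the 26 rows with 80% or more, 7 stood at 1 FPKM or more and 7 were listed at 0, and the median of their means was 0.496 FPKM. The 7 rows of known function at 0 were 18.4% of the 38, near the 18.3% of all rows in the files. All 7 were among the 18 with every word shared, and 14 of those 18 averaged under 1 FPKM. The 4 exceptions were ATP9, CCMFC, NAD4 and COX3. For ATP9, CCMFC and COX3 the implied row lengths were 504, 1359 and 1447 bases, against coding lengths of 225, 1329 and 798 bases. The part of these rows outside the coding sequence was not searched.

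The shared words lay mostly in 1 place, although those of NAD1B were on other nuclear chromosomes. The central 98% of their positions on chromosome 2 spanned 3.24 to 3.50 Mb of TAIR10.1. How the submitters treated reads with several matches is not given in the sources used here, and the part of shared sequence in the low levels was not tested. Of the 4 rows with some but under 50% of their words shared, COX2, RPL16 and RPS3 averaged 6.84, 4.43 and 4.20 FPKM, within the range of the rows that share none. The other, NAD1B, with 19.2% shared, averaged 1.47 FPKM, below that range.

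**Figure D4:**
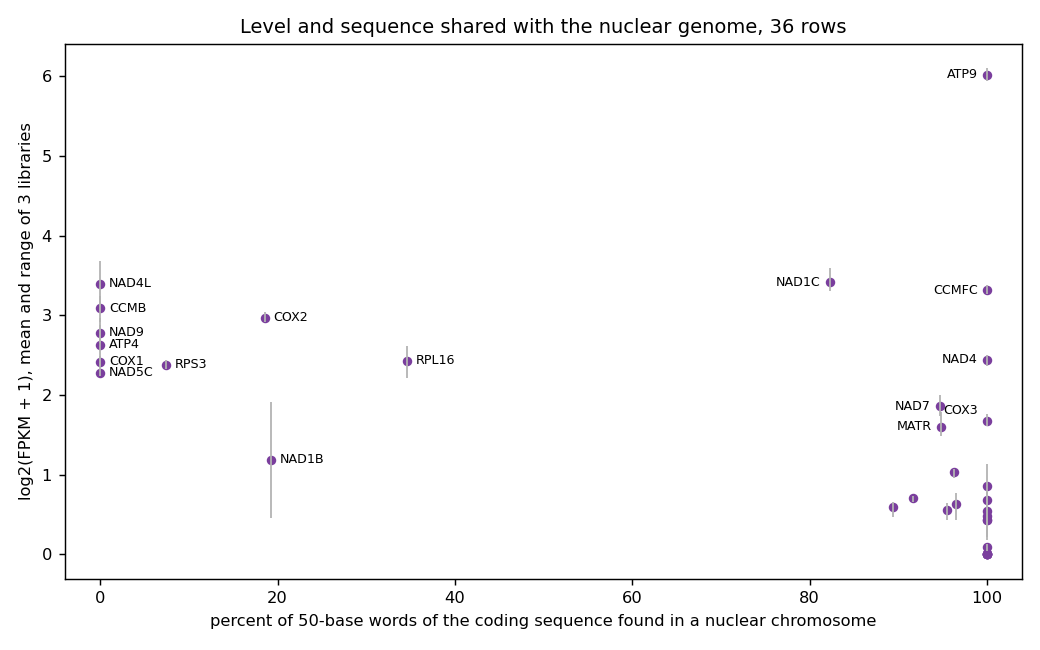
Level of 36 mitochondrial rows on the log2(FPKM + 1) scale (vertical axis; point, mean; bar, range of 3 libraries) against the percent of 50-base words of the coding sequence found in a nuclear chromosome (horizontal axis). Rows at the left lie above 1 FPKM except in a library of NAD1B, while rows at the right run from 0 up to ATP9.

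A copy need not be identical over its whole length. In CCMFN1, 95.5% of words were shared, and the first absent one differed from chromosome 2 by 1 base. The stretch is printed to show the size of the difference that separates a mitochondrial from a nuclear copy in DNA, with the differing base in capitals. It lies at MT:316037-316086 and chr2:3297914-3297963, both on the plus strand, and the substitution is C30T, counted from 1 at the 5′ end with the mitochondrial base first.
CCMFN1 in the mitochondrion: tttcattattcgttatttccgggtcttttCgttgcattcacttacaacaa
CCMFN1-like stretch on chromosome 2: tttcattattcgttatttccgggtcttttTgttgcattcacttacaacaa
RefSeq marks 28 C-to-U positions in CCMFN1, and whether this base is among them was not checked. The deposited values do not show which copy a read came from.

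Genes on chromosome 2 that RefSeq describes as best matching a mitochondrial protein had values of their own. Such a note named 45 of the 122 mitochondrial rows, and of these 21 were listed at 0 and 6 stood at 1 FPKM or more in every library. Among the 77 rows without a note, 11 were listed at 0 and 28 stood at 1 FPKM or more. For 15 rows the mitochondrial row was at 0 while its chromosome 2 relative was above 0, and for 8 the mitochondrial row was above 0 and the relative at 0. Both were at 0 for 6, and of the 16 with both above 0 the mitochondrial row was higher in 7 and the chromosome 2 gene in 9.

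Individual pairs went both ways. ATP9 had 63.5, 67.5 and 60.4 FPKM, against 67.2, 72.7 and 64.7 FPKM for its relative AT2G07671, so ATP9 was slightly lower than its relative in each library. COB was listed at 0, against 1.47, 1.06 and 0.891 FPKM for AT2G07727. ATP1 had 0.0659, 0.0330 and 0.0990 FPKM, against 1.73, 1.84 and 1.59 FPKM for AT2G07698. In the other direction, COX3 had 2.39, 2.15 and 2.05 FPKM, against 0.352, 0.604 and 0.554 FPKM for AT2G07687, and CCMFC had 8.61, 8.87 and 9.43 FPKM, against 0.327, 0.710 and 0.984 FPKM for AT2G07815. ATMG01090, whose note reads ATP synthase 9, had 6.36, 7.70 and 8.09 FPKM while AT2G07777 was listed at 0. Because 27 of the 46 relatives have every word in the mitochondrial sequence, the values of a pair are uncertain in how reads were divided between them.

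**Figure D5:**
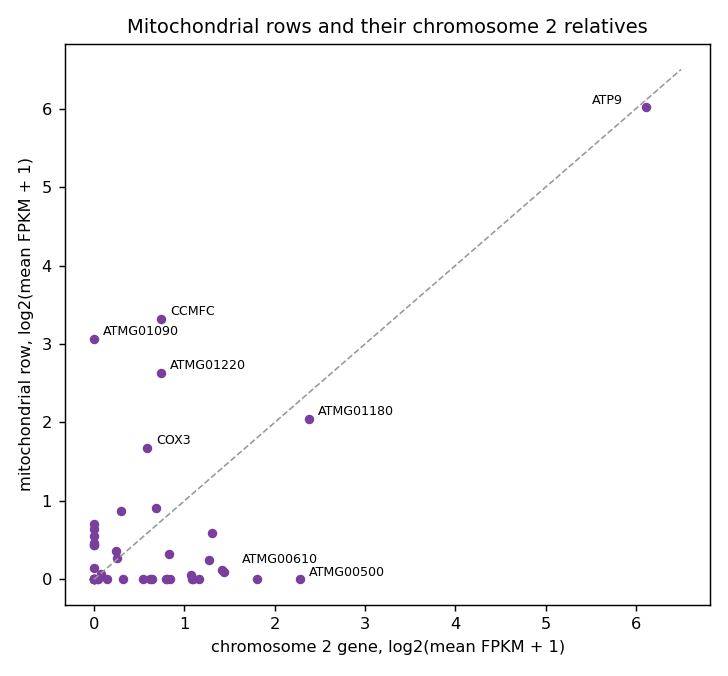
Mitochondrial row (vertical axis) against its chromosome 2 relative (horizontal axis), each as log2 of the mean FPKM of 3 libraries plus 1, with the line of equal level dashed. ATP9 lies near the line, 15 rows lie on the horizontal axis to the right of 0, and CCMFC, COX3, ATMG01220 and ATMG01090 lie above the line.

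Several of the highest mitochondrial rows have no function given here. ATMG00030 had 47.3, 50.1 and 45.3 FPKM in replicates 4, 5 and 6, the highest mean after that of ATP9. ATMG01370 had 33.8, 37.2 and 34.4 FPKM. ATMG01330 had 19.2, 16.4 and 17.7 FPKM, and ATMG00690 had 14.0, 12.8 and 12.8 FPKM. All 4 were above every row of known function in each library except ATP9 and, for ATMG01330 and ATMG00690 in replicate 5, NAD5B. The next rows were ATMG01090, ATMG00660, with 5.80, 6.81 and 6.93 FPKM, ATMG01220, with 5.58, 4.55 and 5.44 FPKM, and ATMG00630, with 4.67, 4.68 and 5.74 FPKM. ATMG01210 averaged 3.34 ± 0.411 FPKM and ATMG01180 3.14 ± 1.04 FPKM (SD, n = 3).

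The lowest rows still at 1 FPKM or more in every library, among those without a given function, were ATMG00670, ATMG01200, ATMG00150, ATMG00130 and ATMG00040, with means of 1.52 to 2.00 FPKM. ATMG00130 varied little, with 1.51, 1.65 and 1.65 FPKM from 11, 12 and 12 reads. ATMG00670 varied more, with 1.58, 2.79 and 1.64 FPKM from 26, 46 and 27 reads, and replicate 5 stood apart. The 25 rows without a given function that were listed at 0, 29.8% of the 84, were ATMG00050, ATMG00170, ATMG00310, ATMG00320, ATMG00430, ATMG00440, ATMG00490, ATMG00500, ATMG00530, ATMG00540, ATMG00550, ATMG00590, ATMG00610, ATMG00620, ATMG00750, ATMG00870, ATMG00880, ATMG00910, ATMG00920, ATMG01000, ATMG01010, ATMG01110, ATMG01140, ATMG01150 and ATMG01310. ATMG00500 was at 0 while its chromosome 2 relative AT2G07708 had 4.00, 3.76 and 3.81 FPKM.

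Spread between libraries is given here with the reads behind it. The median SD on the log2(FPKM + 1) scale was 0.134 over the 34 detected mitochondrial rows, against 0.0678 over 15209 detected nuclear rows up to the highest mitochondrial mean. These sets were not matched for level, length or reads, so they do not show that mitochondrial rows vary more. Among the 31 mitochondrial rows with 60 reads or more over the 3 libraries, the variance of reads divided by their mean had a median of 0.643 and a highest value of 3.85, in ATMG00670. Reads are a minimum where only the smallest length is known, which scales this ratio, and it was not tested against counting error. The 5 largest spreads among detected rows were in NAD5B, ATMG01180, ATMG00150, NAD4L and ATMG00670. NAD4L combined a high level with 60, 71 and 44 reads. Its neighbour ATP4, which begins 266 bases downstream, moved the other way over the libraries, and ATP4 minus NAD4L was -0.76 ± 0.57. ATMG01170 minus ATP6-1 was 1.58 ± 0.14, higher for ATMG01170 in every library, and 2.67 with a pseudocount of 0.1. The pair was listed as ATP6-2 and ATP6-1, although ATMG01170 has no tie. Of the words of the ATP6-1 coding sequence, 64.2% are repeated within the mitochondrial sequence and 100% occur in a nuclear chromosome. Whether the repeats lie in ATMG01170 was not checked. How reads were divided between these rows is not known, and its part in the difference was not tested.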

How the data were processed

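Each deposited file lists 27416 genes with a value apiece. Headers name no unit. The authors' values are treated as FPKM, because the submitters' processing notes name Cufflinks 2.1.1, TopHat2 2.0.9 and TAIR10, with no role or order; RPKM is equally possible. Multimapping and strand settings: not given in the sources used here. Library totals were found from whole-read steps in the values, and all 90 of 90 mitochondrial rows above 0 gave whole reads within a tolerance of 0.0001. Where only the smallest length that fits is known, reads are a minimum. On simulated reads of nuclear genes, 91.8% of 600 row lengths and all 3 totals were recovered exactly. Simulated rows with few reads were left out of this score. It therefore does not cover rows such as ATP1, with 2, 1 and 3 reads in replicates 4, 5 and 6. With 1 group no test was run. List values are differences of medians of log2(FPKM + 1), as the mean ± SD over 3 libraries. Detection meant at least 1 FPKM in all 3 libraries. An exact 0 is given as listed and is not read as absence of the transcript. Why rows such as COB are at 0 was not tested.

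Coordinates, notes and 50-base words came from RefSeq on TAIR10.1, whose mitochondrial sequence of 367808 bases may differ from the one the authors used. Names were paired with rows by a list and then checked against RefSeq. RefSeq marks 591 C-to-U positions in the tied exons, and words are unedited DNA, from coding sequence only. The text names every row of known function, the 10 highest and 5 lowest detected other rows, the 5 detected rows with the largest spread, and rows listed at 0. ATMG00500, as the relative of AT2G07708, and rows singled out for their relatives were chosen after values were seen. Members and lists were chosen with earlier results of these data known. Of 12 gene pairs, 4 held a row listed at 0 and have no ratio. Python 3.11.15, numpy 2.4.6, pandas 2.3.3, scipy 1.17.1 and matplotlib 3.10.9 were used. Alternatives changed the pseudocount, the detection level, the filter, the median, the rows and the libraries.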

Additional observations from a re-analysis of the deposited data

How the results depend on the processing

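Words were searched only for tied rows, so leaving out sharing rows removed 30 rows of known function and kept NAD5B, ATMG01170 and all 84 other rows unsearched. It does not show mitochondrial rows free of shared sequence. The share of mitochondrial rows detected moved to 38.5% at a detection level of 0.5 FPKM. The mitochondrial median minus the nuclear one was -3.09 with a pseudocount of 0.1, -1.55 with means over members, -1.46 over rows with a mean of 1 or more and -2.06 without the sharing tied rows. Minus the chloroplast median it was -2.05, -0.81 and 0.11 under the first 3 of these, and only the last turned the sign. Known minus other rows was 1.90 with a pseudocount of 0.1 and 2.40 without the sharing tied rows, a filter on 1 side that left 8 known against 84 unsearched rows. Mitochondrial minus nuclear subunits was -4.73 with a pseudocount of 0.1, -4.12 with means, -3.69 over rows with a mean of 1 or more, -3.52 without the sharing tied rows and -4.24 without the rows tied by neither note nor exact length, an alternative added after seeing the data. Against other rows of known function, complex I turned to -0.044, complex IV to -0.071 and cytochrome c maturation to 0.80 over rows with a mean of 1 or more. Without the sharing tied rows, complex IV (COX1 alone) turned to -0.42, ATP synthase (ATP4 and ATMG01170) to -0.56 and cytochrome c maturation (CCMB alone) to 0.51, and no ribosomal protein row was left. ATP synthase turned to -0.80 without the rows tied by neither. Leaving out 1 library, RPS3 minus RPL16 ranged over -0.16 to 0.059 (without replicate 6) and NAD2B minus NAD2A over -0.043 (without replicate 4) to 0.36. With a pseudocount of 0.1, ATP1 minus ATP9 was -8.61, ATMG01170 minus ATP6-1 2.67, NAD5B minus NAD5A 3.54, NAD5C minus NAD5A 1.80 and CCMFN2 minus CCMFN1 0.35. The cause of these turns was not tested. Leaving out 1 library gave 29.5 to 30.3% for the share, -2.00 to -1.94 for the nuclear, -1.20 to -1.08 for the chloroplast, 0.69 to 0.87 for the known-minus-other and -4.33 to -4.30 for the subunit difference. Rows of under 10 reads a library, ATP1 and NAD5B among them, are limited by depth. No paired analysis was possible because the series has 1 group.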
